A study of Mus musculus with 14 samples.

Results

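The genes *Foxa2*, *Asz1*, *DXBay18*, *Nckap1l* and *Cyp2b9*, 5 of the 19504 genes named on the array, each had a probe that was bright in every IVF-derived blastocyst sample and dim in at least 7 of 8 cloned blastocyst samples. For *Foxa2* and *Asz1* no clone array was above background, whereas *Cyp2b9* and the brighter *DXBay18* probe were above it on 5 and 4 of the 8 clone arrays. The genes were chosen by level alone, as probes with a log2 normalized signal of 8 or more (a signal of 256) on all 6 IVF arrays and of 6 or less (a signal of 64) on at least 7 of the 8 clone arrays. Of 41174 gene probes, 10 met these limits. The 4 of them named *Magea* or *Xlr*, gene families on the X chromosome, were left out by the rule, and none was Y-linked (0 probes), which left 6 probes of 5 genes. Because the levels on the IVF and clone arrays chose these probes, the difference between clones and IVF embryos is given below as a description, with no test.

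The 14 samples were E4.0 mouse blastocysts cultured in KSOM medium, with total RNA amplified linearly and hybridized to 1-colour whole mouse genome oligonucleotide arrays. Cloned embryos were made from cumulus cells, the somatic cells around the ovulated oocyte, either by fusing the cell with an enucleated oocyte (4 fusion clones) or by injecting its nucleus (4 injection clones), and all 8 are labelled female. Controls were embryos made by in vitro fertilization, 3 male and 3 female. The study's methods describe donor cells from heterozygous *Xist* knockout mice on a BDF1 background and BDF1 oocytes, and the design text calls the controls matched in genotype, but the sample labels give no genotype or strain. The labels also do not say whether the samples of a group came from separate cultures or how many embryos each holds, so the p-values below measure only the spread between these samples, which may be technical. The clone arrays and the IVF arrays were read on different scanner models with different software versions, and each group lay on a slide of its own, so that for every contrast the effect of the slide, and between clones and IVF embryos that of the scanner too, cannot be told apart from that of the group.

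After nuclear transfer, the oocyte has to reset the transcription of a somatic nucleus to that of an early embryo, and genes that are silent in the donor cell must be switched on without having passed through the germ line. At the blastocyst stage the embryo holds trophectoderm, epiblast and primitive endoderm. *Foxa2* encodes a forkhead transcription factor of endoderm, *Asz1* an ankyrin-repeat protein of germ cells that acts in the piRNA pathway, *Nckap1l* a subunit of the WAVE actin-regulating complex known from blood cells, and *Cyp2b9* a cytochrome P450 best known from liver.

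The sequences before the start sites are shown because the start regions of these genes differ in their content of CpG, the dinucleotide at which mammalian DNA is methylated. They were taken from the RefSeq promoter table for GRCm38.p6, which held 4 of the 5 genes, all but *Nckap1l*, and each line gives the 250 bases before a start site, 5′ to 3′ on the strand of the gene, with every CpG in capitals. The *Foxa2* windows are chr2:148046970-148047219 and chr2:148045949-148046198 on the minus strand, before its outermost and its middle listed start. The *Asz1* window is chr6:18109062-18109311 on the minus strand, the *DXBay18* window chrX:73149451-73149700 on the minus strand, and the *Cyp2b9* window chr7:26173159-26173408 on the plus strand.
Foxa2 outermost start: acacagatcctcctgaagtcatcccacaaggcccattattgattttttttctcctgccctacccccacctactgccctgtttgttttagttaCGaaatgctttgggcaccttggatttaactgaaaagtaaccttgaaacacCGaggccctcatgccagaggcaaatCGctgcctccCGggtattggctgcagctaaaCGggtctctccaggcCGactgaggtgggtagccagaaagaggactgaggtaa
Foxa2 middle start: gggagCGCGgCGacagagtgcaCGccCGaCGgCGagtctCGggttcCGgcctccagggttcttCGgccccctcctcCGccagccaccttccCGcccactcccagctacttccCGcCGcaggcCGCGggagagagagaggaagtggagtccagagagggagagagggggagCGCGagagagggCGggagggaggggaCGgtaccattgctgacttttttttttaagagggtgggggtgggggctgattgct
Asz1: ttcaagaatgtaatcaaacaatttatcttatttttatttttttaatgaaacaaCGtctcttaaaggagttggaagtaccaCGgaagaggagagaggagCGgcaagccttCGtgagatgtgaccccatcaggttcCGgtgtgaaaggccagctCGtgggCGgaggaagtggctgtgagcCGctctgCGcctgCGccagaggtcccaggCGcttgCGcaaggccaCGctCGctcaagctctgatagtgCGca
DXBay18: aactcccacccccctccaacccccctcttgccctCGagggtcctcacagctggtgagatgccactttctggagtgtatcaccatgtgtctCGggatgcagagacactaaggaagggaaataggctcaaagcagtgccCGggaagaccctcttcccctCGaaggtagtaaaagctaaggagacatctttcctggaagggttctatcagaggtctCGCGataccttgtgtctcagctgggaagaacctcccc
Cyp2b9: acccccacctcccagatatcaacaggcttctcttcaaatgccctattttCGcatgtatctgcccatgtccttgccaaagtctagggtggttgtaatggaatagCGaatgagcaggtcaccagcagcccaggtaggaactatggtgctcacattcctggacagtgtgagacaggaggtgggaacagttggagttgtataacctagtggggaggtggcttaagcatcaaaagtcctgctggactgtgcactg

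Over the whole 300-base windows of the table (250 bases before and 50 after a start), the median of 32851 promoters was 7 CpG. *Asz1* had 17 CpG, a number that 31.4% of promoters reached or exceeded. The 3 *Foxa2* starts had 12, 23 and 13, *DXBay18* had 7 and *Cyp2b9* had 3, which 76.7% of promoters reached or exceeded. The genes therefore did not share a CpG-rich or a CpG-poor start. Of the letters searched on both strands, CACGTG (an E-box, in 7.15% of promoters) and TGACGTCA (a CRE, in 1.79%) were in none of these 6 windows. CCAAT (in 37.4%) was in the window of the outermost *Foxa2* start. The E2F motif GCGGGAA (in 4.60%) was in that of the middle start. The TATA box letters TATAAA (in 13.6%) were in that of the innermost start. No array measured methylation or binding, and a match of letters is a description only.

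*Foxa2* showed the clearest separation. Its probe is printed 10 times on the array, and of the 80 spots on the clone arrays 6 were marked as outliers by the scanner software and 0 of the other 74 were well above background, with processed signals of 2.24 to 8.42. All 60 spots on the IVF arrays were well above background, with signals of 749 to 3027. On the log2 normalized scale, where 4 is the floor (a signal of 16), the level was 4 on all 8 clone arrays, 10.34, 9.93 and 11.12 in male IVF embryos 1 to 3 and 11.24, 10.85 and 11.40 in female IVF embryos 1 to 3. No clone array came near an IVF array.

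Female IVF embryos had a *Foxa2* level about 140-fold above fusion clones and about 141-fold above injection clones. Such folds set each clone array to the lowest floored signal among its probes well above background. The probe's own value was used where that was higher. For *Foxa2* these clone levels averaged 4.04 and 4.02 on the log2 scale, next to the floor of 4, so the folds depend on that floor. They are not strict lower bounds, since an undetected probe can lie above the dimmest detected one. Spots of the same probe on an IVF array differed by an SD of at most 0.13 on the log2 scale. In RNA of whole embryos, fewer cells of a type and less RNA per cell cannot be told apart.

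*Asz1*, measured by 1 probe, had the same form. Its level was 4 on all 8 clone arrays, none of them well above background (0 of 8), with processed signals of 2.27 to 4.57. It was 10.15, 9.88 and 10.41 in the male and 10.45, 11.21 and 10.83 in the female IVF embryos, with signals of 816 to 2581. By the same reckoning, female IVF embryos were about 111-fold above fusion clones and about 112-fold above injection clones.

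*DXBay18*, an X-linked gene named LOC574405 in the array's annotation, was the gene with 2 probes within the limits. The brighter probe (A_51_P251737) read 12.35, 11.83 and 11.30 in male and 11.32, 10.62 and 11.03 in female IVF embryos. In clones it was not silent on every array: fusion clones 1 to 4 read 4, 4.14, 5.20 and 5.68, injection clones 1 to 4 read 4, 4, 5.93 and 5.03, and 4 of the 8 clone arrays were well above background. The highest clone and the lowest IVF embryo were still 4.68 apart on the log2 scale.

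The other *DXBay18* probe (A_52_P166292) read 10.72, 10.62 and 10.05 in male and 10.31, 9.67 and 9.85 in female IVF embryos. It was at the floor on 7 clone arrays and 4.70 in injection clone 3, the clone with the highest value on the brighter probe as well. By the same reckoning, female IVF embryos were about 59.9-fold above fusion clones, where none of the 4 arrays detected it above background. In the RefSeq gene order *DXBay18* overlaps *Xlr5b* and lies beside further *Xlr* genes, so signal of *DXBay18* and of *Xlr5b* cannot be told apart with certainty, and its name kept it out of the exclusion of *Xlr* genes.

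*Nckap1l* was at the floor in all 4 fusion clones and in injection clones 2, 3 and 4. Injection clone 1 read 5.77 and was the 1 clone array well above background. The IVF embryos varied more than for the genes above: males read 10.22, 8.56 and 8.63, and females 10.23, 10.66 and 9.16. The groups did not overlap, and by the same reckoning female IVF embryos were about 63.0-fold above fusion clones.

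*Cyp2b9* was the weakest case. Its probe (A_51_P467076) read 8.35, 8.08 and 9.71 in male and 8.21, 8.72 and 8.80 in female IVF embryos. Fusion clones read 4, 5.99, 7.17 and 4 and injection clones 4.72, 5.76, 4.64 and 4, and 5 of these 8 arrays were well above background. Fusion clone 3 was above the clone limit, and only 0.91 on the log2 scale lay between it and the lowest IVF array.

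A second *Cyp2b9* probe (A_52_P256914) was at the floor on all 14 arrays and well above background on none (0 of 14), so the 2 probes of this gene disagree. *Cyp2b9* also has relatives, among them *Cyp2b13* and *Cyp2b10* beside it on chromosome 7, so that the signal of its probe cannot be assigned to it with certainty.

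**Figure D1:**
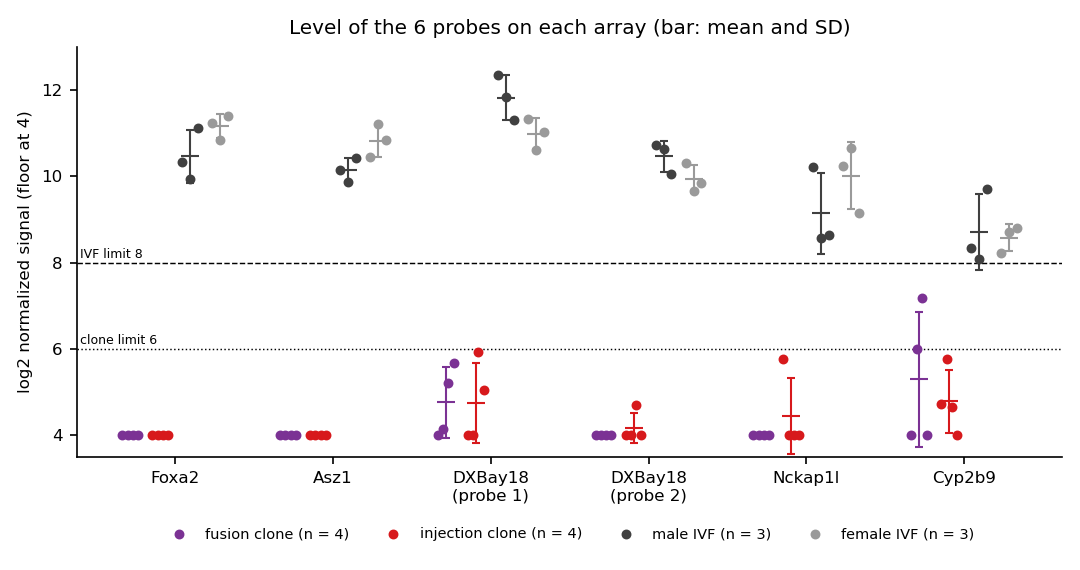
Each point is 1 array and the y axis is the log2 normalized signal with a floor at 4. Bars give the mean and SD of each group, and dashed and dotted lines mark the limits of the rule. *Foxa2* and *Asz1* lie at the floor on all 8 clone arrays, whereas 1 fusion clone reaches 7.17 for *Cyp2b9*.

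All 6 probes had every clone array below every IVF array, which the limits nearly force. Among all 34978 probes well above background on at least 1 array, 3.64% had such a separation downward in clones and 2.47% had it upward. The opposite pattern to the one studied, with 8 or more on all 8 clone arrays and 6 or less on at least 5 of the 6 IVF arrays, was met by 4 probes: *Klra1* (named *Klra22* on the array), *Epas1*, *Fancm* and AK078294. Their medians over the clones ranged from 8.88 for *Epas1* to 10.97 for *Fancm*, while AK078294 was at the floor on all 6 IVF arrays.

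The limits cut through a continuous range. Just inside, *Cyp2b9* had a lowest IVF value of 8.08 and *Nckap1l* of 8.56, and the second-highest clone was 5.99 for *Cyp2b9* and 5.68 for *DXBay18*. Just outside the IVF limit were *Nr0b1* (X-linked, a nuclear receptor of early embryos, lowest IVF value 7.98), *Pcdh8* (a protocadherin, 7.86) and the unnamed probe A_51_P445924 (7.86). Just outside the clone limit were *Nefl* (a neurofilament subunit, second-highest clone 6.1), *Syt9* (a synaptotagmin, 6.13) and *Rapgef5* (6.58).

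*Nefl* had a median of 12.40 over the IVF embryos and was at the floor in all 4 injection clones and in fusion clones 1 and 4. Fusion clones 2 and 3 read 6.1 and 8.35, and these kept it out. Fusion clones 2 and 3 were also the highest fusion clones for *Cyp2b9* and *Syt9*. The membership rests partly on single arrays. Without fusion clone 2 the limits were met by 10 probes, with *Maged2*, *Nefl*, *Bmper* and *Eya1* added. Without fusion clone 3 they were also met by 10, with *Nefl*, *Pga5*, *Bmper* and *Syt9* added. They were met by 9 without injection clone 3 (*Pga5*, *Syt9* and *Eya1* added). Without female IVF embryo 1 they were met by 9 as well (*Pcdh8*, A_51_P445924 and *Nat8l* added). With a clone left out, another clone could still exceed the limit, as fusion clone 3 did for *Nefl*.

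**Figure D2:**
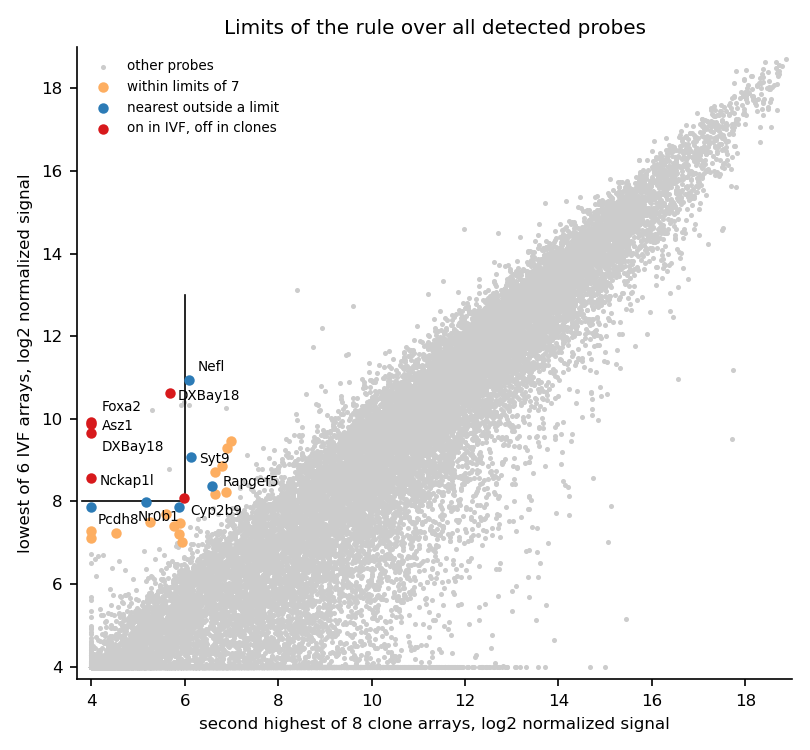
Each grey point is a probe well above background on at least 1 array. The x axis gives the second-highest of the 8 clone arrays and the y axis the lowest of the 6 IVF arrays, both as log2 normalized signals, and the black corner marks the limits of 6 and 8. The 6 chosen probes (red) lie within it, *Cyp2b9* at its edge (5.99 and 8.08). Grey points within it are the 4 *Magea* and *Xlr* probes left out by name.

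The comparison of fusion with injection clones asked whether the way of nuclear transfer mattered. The limits held both kinds of clone at low levels, between the floor of 4 and 6 on at least 7 of 8 arrays, so that the values of the 5 genes are a description here too, with no test. *Foxa2* and *Asz1* were not detected above background in a clone. *Nckap1l* differed by -0.44 on the log2 scale (fusion minus injection, SE 0.41) and *Cyp2b9* by 0.51 (SE 0.79). The *DXBay18* probes differed by 0.01 (SE 0.57) and -0.17 (SE 0.18). Over the whole array, 0% of 32187 probes were called at an adjusted p below 0.05 in limma, and 1980 (6.15%) had an unadjusted p below 0.05.

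Male and female IVF embryos were compared by the same fit, where the limits bounded the levels of the 5 genes from below only. *Foxa2* and *Asz1* had lower means in males, by -0.70 (male minus female, log2 scale, SE 0.38, adjusted p = 0.669) and -0.68 (SE 0.30, adjusted p = 0.649). *DXBay18*, although X-linked and present in 1 copy in males, had higher means in males on both probes, by 0.84 (SE 0.36, adjusted p = 0.649) and 0.52 (SE 0.31, adjusted p = 0.693). *Nckap1l* differed by -0.88 (SE 0.62, adjusted p = 0.725) and *Cyp2b9* by 0.14 (SE 0.49, adjusted p = 0.926). None of the 6 probes passed (0 calls), beside 0.0625% of 32021 probes called over the array (20 probes, with 7.79% at an unadjusted p below 0.05). The limits had already removed any probe below 8 on an array of either sex. These p-values and the count of 0 therefore cannot show that the sexes were alike. The sexes overlapped for all probes but that of *Asz1*, 1 of 6 without overlap beside 12.8% of all probes tested. Within the 3 same-numbered pairs of a male and a female array, 5 of the 6 probes differed with 1 sign in all pairs, all but *Cyp2b9*, beside 27.4% of all probes tested. These shares are not like for like: the limits keep the 6 probes off the floor, where other probes can tie within a pair. *DXBay18* gave 2 of the 5, and the labels do not say that same-numbered arrays are pairs. *Foxa2* differed by -0.90, -0.93 and -0.28 (male minus female, log2 scale) and the brighter *DXBay18* probe by 1.04, 1.21 and 0.27. With the replicate numbers as a block, 0 probes were called over the array and again 0 of the 6 (adjusted p = 0.622 for *Foxa2* in limma).

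Other genes of the same cell types and pathways were then described, with the fits of fusion and of injection clones against female IVF embryos. These 2 comparisons share the 3 female embryos. At an adjusted p below 0.05, 4.61% of 32370 probes were lower in fusion clones and 4.53% higher, and 1.87% of 32801 probes were lower in injection clones and 1.58% higher.

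*Foxa2* belongs to a list of 14 primitive endoderm genes, all present on the array. Of the other 13, 2 were lower in fusion clones, *Sox7* (an endoderm transcription factor, difference -6.36, SE 0.995, adjusted p = 0.0173) and *Cubn* (the endocytic receptor cubilin, -4.24, SE 0.93, adjusted p = 0.0406), and 0 were higher. Among IVF embryos *Sox7* was itself at the floor of 4 in male 2, with 9.38 in male 1 and 12.2 in male 3. No clone therefore lay below all IVF embryos for *Sox7*. In injection clones 2 of 13 were lower, the laminin chains *Lama1* (-4.39, SE 0.79, adjusted p = 0.0449) and *Lamb1* (-1.56, SE 0.25, adjusted p = 0.0355), and 0 were higher. Genes called in 1 kind of clone had the same sign in the other. In injection clones *Sox7* differed by -5.25 and *Cubn* by -2.71 (adjusted p = 0.0652 and 0.0638 in limma). In fusion clones *Lama1* differed by -3.88 and *Lamb1* by -1.13 (adjusted p = 0.142 and 0.187 in limma). The median difference of the 13 was -1.19 in fusion and -1.92 in injection clones, beside -0.09 and -0.05 for all probes tested. With 1 array left out it ranged from -1.64 to -0.73 in fusion clones, the latter without fusion clone 4, and from -2.16 to -1.70 in injection clones. The calls also depended on single arrays: that of *Sox7* was lost without female IVF embryo 3 (adjusted p = 0.0531), that of *Cubn* stood only without fusion clone 4, that of *Lamb1* only without female IVF embryo 2, and that of *Lama1* in none of 7 fits with 1 array left out (0 of 7).

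The defining primitive endoderm factors did not share the uniform absence of *Foxa2*. *Gata6*, which acts at the start of this lineage, read 15.68 to 16.70 over the clones and 15.49 to 16.60 over the IVF embryos. *Sox17* varied widely among clones: fusion clones read 10.65, 14.50, 15.02 and 4 and injection clones 7.07, 4, 14.83 and 11.44, whereas IVF embryos read 13.16 to 14.27. Fusion clones 2 and 3 and injection clone 3 thus exceeded every IVF array for *Sox17* and were still at the floor for *Foxa2*.

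*Gata4* read 4, 7.44, 7.32 and 4 in fusion clones and 4, 4, 6.48 and 4.19 in injection clones, against 7.19 to 9.37 in IVF embryos, and was highest in the same 3 clones as *Sox17*. The difference from female IVF embryos was not called for *Gata4* (adjusted p = 0.205 and 0.0668) or *Sox17* (adjusted p = 0.493 and 0.325). The summed signal of the 12 genes with a value on all 14 arrays (*Lamc1* lacked one) spanned 17.51 to 18.15 on the log2 scale in fusion clones, 17.34 to 17.84 in injection clones, 17.70 to 18.66 in male and 18.15 to 18.63 in female IVF embryos. None of these was at the floor on every array of a clone group (0 genes), and 1 of 12 had every clone below every IVF embryo, beside 3.64% of all detected probes. The part of cell composition in the *Foxa2* levels was not tested.

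*Asz1* belongs to a list of 36 germline genes, 34 of them on the array, and unlike the primitive endoderm list its genes moved in both directions. Of the other 33, 3 were lower in fusion clones: *Mael* (piRNA pathway, -4.23, SE 0.78, adjusted p = 0.0264), *Sohlh2* (a germ cell transcription factor, -3.78, SE 0.44, adjusted p = 0.00798) and *Tuba3a* (a testis tubulin, -1.07, SE 0.23, adjusted p = 0.0390). Another 3 were higher, *Tdrd1* (a tudor-domain protein of the piRNA pathway, 4.65, SE 0.83, adjusted p = 0.0245), *Dpep3* (3.01, SE 0.64, adjusted p = 0.0380) and *Brdt* (a testis bromodomain protein, 3.01, SE 0.51, adjusted p = 0.0219). Male IVF embryos 2 and 3, which this comparison left out, read 7.17 and 7.16 for *Brdt*, within the range of the clones (4.11 to 8.4). In injection clones 0 of the 33 were called lower and 3 were called higher, *Tdrd1* (4.60, SE 0.58, adjusted p = 0.0241), *Figla* (an oocyte transcription factor, 2.65, SE 0.45, adjusted p = 0.0419) and *Tdrd12* (2.36, SE 0.42, adjusted p = 0.0449). Their median difference was -0.45 in fusion and 0.10 in injection clones, and it rested on single arrays: in fusion clones it was -0.19 without female IVF embryo 1 and -0.21 without female IVF embryo 3, and in injection clones -0.045 without female IVF embryo 2, 0.037 without injection clone 4, 0.26 without female IVF embryo 1 and 0.29 without injection clone 1. Of these 9 calls, that of *Sohlh2* stood in all 7 fits with 1 array left out, and the others were lost in at least 3 of 7. The 3 genes lower in fusion clones had the same sign in injection clones without a call. There *Mael* differed by -4.37, *Sohlh2* by -2.67 and *Tuba3a* by -1.23 (adjusted p = 0.182, 0.0864 and 0.0882 in limma). For *Mael* and *Sohlh2* all 8 clones lay below all IVF embryos. They were among 3 such genes of the 32 with a value on all arrays, *Asz1* left out, beside 3.64% of all detected probes.

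*Tdrd1* and *Asz1*, both genes of the piRNA pathway, thus had opposite levels. *Tdrd1* read 6.97 to 10.67 over the 8 clones, and was at the floor in male IVF embryos 1 and 2 and in all 3 females, with 7.61 in male 3. *Sohlh2* read 6.76 to 8.58 in fusion and 7.34 to 10.44 in injection clones against 10.60 to 12.27 in IVF embryos, so that it was low in clones without being absent.

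**Figure D3:**
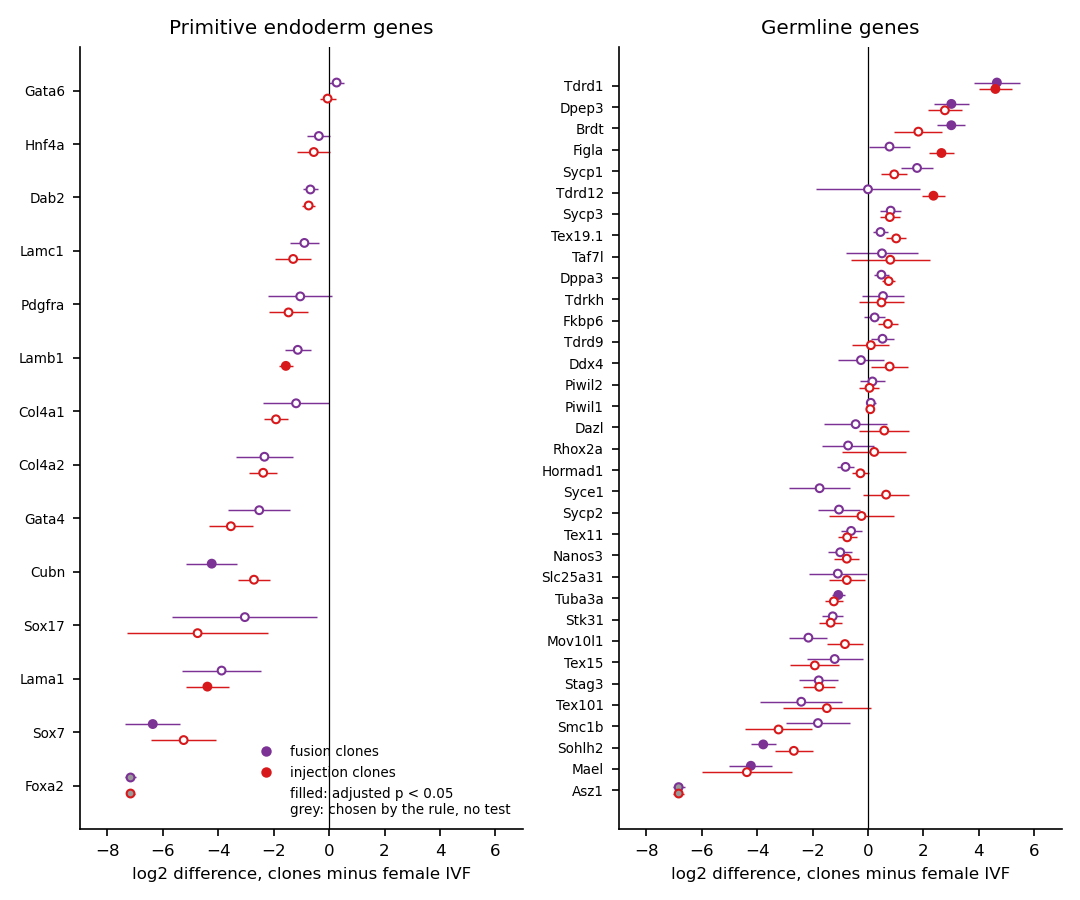
The x axis is the log2 difference of clones from female IVF embryos, with fusion (purple) and injection clones (red) and the standard error as a bar. Filled points have an adjusted p below 0.05, and *Foxa2* and *Asz1* are grey since the rule chose them. The 13 other primitive endoderm genes lie mostly below 0, with medians of -1.19 and -1.92, whereas germline genes lie on both sides.

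Markers of the other blastocyst lineages were present. All 10 epiblast genes on the array were well above background on all 14 arrays, as were 11 of 13 trophectoderm genes (*Gata2* had no value on the IVF arrays, where its spot was marked as an outlier). Against female IVF embryos, 0 of 10 epiblast genes were lower and 0 higher in fusion clones, and 0 lower and 1 higher in injection clones. Of 12 trophectoderm genes tested, 1 was lower in fusion clones and 0 in injection clones, with 0 higher in either. The gene called was *Elf5*, a transcription factor of the trophoblast, which differed by -2.91 (SE 0.45, adjusted p = 0.0172, lost without fusion clone 2) and in injection clones by -3.61 (SE 0.83, adjusted p = 0.0693). The keratin gene *Krt7* differed by -2.15 and -2.59 (adjusted p = 0.137 and 0.0668). Of the 11 trophectoderm genes with a value on all arrays, 3 had every clone below every IVF embryo, beside 3.64% of all detected probes. *Hand1* went the other way, with a median of 9.21 over clones and 4 over IVF embryos. Its differences of 2.91 and 3.36 were not called (adjusted p = 0.252 and 0.342 in limma). The median difference of the 12 trophectoderm genes tested was 0.019 in fusion and -0.022 in injection clones. Of the genes listed for cumulus cells, 3 of 14 were well above background on all 14 arrays and 0 were called in either kind of clone. Since the IVF embryos had these 3 as well, their detection does not mark the donor cell.

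The remaining lists held none of the 5 genes and had few calls. Of 14 oocyte genes tested 0 were called. Of the genes of zygotic activation, 1 of 11 was lower in fusion clones and 0 of 12 in injection clones, and 0 were higher. Of 54 imprinted genes, 3 were lower and 3 higher in fusion clones, and 1 was lower and 1 higher in injection clones.

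The genes beside the 5 on their chromosomes were looked at next, as the 5 nearest protein-coding genes with a probe on each side in RefSeq gene order (fewer at the end of a table or where no probe was found), a choice made once the 5 genes were known. *Xlr5c* was 1 of the 4 probes within the limits that were left out by name, and is described without a test. Of 49 neighbours, 39 others were tested in each comparison. In fusion clones 9 were lower and 0 higher, beside 4.61% of all probes tested that were lower. In injection clones 5 were lower and 0 higher, beside 1.87% lower. The 9 include *Xlr4b* and *Xlr3c*, of a family the rule left out by name, and the *Cyp2b9* relatives *Cyp2b10* and *Cyp2a4*. The totals therefore do not describe the 5 stretches alike. With any 1 of 7 arrays left out, 4 to 6 were lower in fusion clones. In injection clones it was 5 without injection clone 4, and 2 or 3 without any other array. The deposited log2 values gave 5 and 2.

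The neighbours of *Asz1* on chromosome 6 were not alike. *Cftr*, the chloride channel gene next to it, was lower in fusion clones (-3.36, SE 0.23, adjusted p = 0.00129) and injection clones (-3.35, SE 0.22, adjusted p = 0.00428). It read 4 to 4.06 over the clones and 5.36 to 7.69 over the IVF embryos. *Cttnbp2*, the gene after it, was lower by -2.95 (SE 0.57, adjusted p = 0.0293) and -2.75 (SE 0.48, adjusted p = 0.0442), with 4 to 6.19 over clones and 7.38 to 8.83 over IVF embryos.

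The call on *Cftr* stood with any 1 of 7 arrays left out in both comparisons, whereas that on *Cttnbp2* was lost in 6 of 7 in each, standing only without fusion clone 2 and only without injection clone 4. *Met*, a receptor tyrosine kinase gene on the other side, was lower in fusion clones (-2.84, SE 0.45, adjusted p = 0.0176), a call lost without fusion clone 1 or fusion clone 3. Broadly used genes in the same stretch differed little: *Capza2* by 0.21 and 0.11 (adjusted p = 0.461 and 0.697), *St7* by -0.37 and 0.14 (adjusted p = 0.674 and 0.909) and *Lsm8* by 0.54 and 0.57 (adjusted p = 0.0897 and 0.0810). The *Asz1* stretch therefore held genes at or near the floor in clones and genes at IVF levels side by side.

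Around *DXBay18* on the X chromosome the low genes lay on 1 side. *Xlr5c*, within the limits itself, read 4 to 6.37 over clones and 10.34 to 11.79 over IVF embryos. *Xlr4b* was lower in fusion (-4.41, SE 0.60, adjusted p = 0.0119) and injection clones (-4.35, SE 0.82, adjusted p = 0.0497). *Xlr3c* and *F8a* were called in fusion clones only (adjusted p = 0.0196 and 0.0339), with adjusted p = 0.0568 and 0.337 in injection clones, and the difference between the 2 kinds of clone was not called for any probe. On the other side *Zfp185*, *Nsdhl* and *Cetn2* read 10.29 or more on all 14 arrays and were not called. For *Xlr4b* and *Xlr3c* all 8 clones lay below all 6 IVF embryos, as for 3.64% of all detected probes. With 1 of 7 arrays left out, the fusion clone call on *Xlr4b* stood in all 7 fits, while that in injection clones stood in none (0 of 7), that on *Xlr3c* was lost without fusion clone 1 or female IVF embryos 1 or 3, and that on *F8a* stood only without fusion clone 1.

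The neighbours of *Cyp2b9* on chromosome 7 include its relatives. *Cyp2b10* was lower in fusion (-2.24, SE 0.43, adjusted p = 0.0298) and injection clones (-2.66, SE 0.25, adjusted p = 0.0123), *Cyp2a4* in fusion clones (-2.23, SE 0.28, adjusted p = 0.00967) and *Cyp2b13* in injection clones (-3.70, SE 0.53, adjusted p = 0.0293). *Cyp2b13* read 4, 5.94, 6.97 and 4 in fusion clones, an order like that of *Cyp2b9* (4, 5.99, 7.17 and 4), and the relatives can share signal. *Cyp2s1* further along read 15.34 or more on all 14 arrays and *Hnrnpul1* 14.82 or more on the 11 arrays with a value, and neither was called. With 1 of 7 arrays left out, the calls on *Cyp2a4* and on *Cyp2b10* in injection clones stood in all 7 fits, and those on *Cyp2b10* in fusion clones and on *Cyp2b13* stood in 2 of 7.

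The surroundings of *Foxa2* and *Nckap1l* held fewer calls. On chromosome 2, *Sstr4* was lower in fusion clones (-0.96, SE 0.19, adjusted p = 0.0304, a call that stood in 1 of 7 fits with an array left out, that without female IVF embryo 3) and 0 of 9 tested neighbours of *Foxa2* were called in injection clones. *Pax1* and *Nkx2-2*, transcription factor genes beside *Foxa2*, were at the floor on all 8 clone arrays, and *Nkx2-2* on the 6 IVF arrays too. On chromosome 15 none of the 6 and 5 tested neighbours of *Nckap1l* was called (0 calls), and *Pde1b* next to it read 9.46 to 11.28 over clones and 9.14 to 10.38 over IVF embryos. *Ppp1r1a*, the gene after *Pde1b*, read 5.77 to 8.15 over clones and 8.42 to 10.22 over IVF embryos. It differed by -1.98 and -1.73 (adjusted p = 0.0831 and 0.166 in limma). *Nxt1* near *Foxa2* was also without overlap, narrowly (highest clone 12.46, lowest IVF embryo 12.49). Such a separation downward held for 3.64% of all detected probes.

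**Figure D4:**
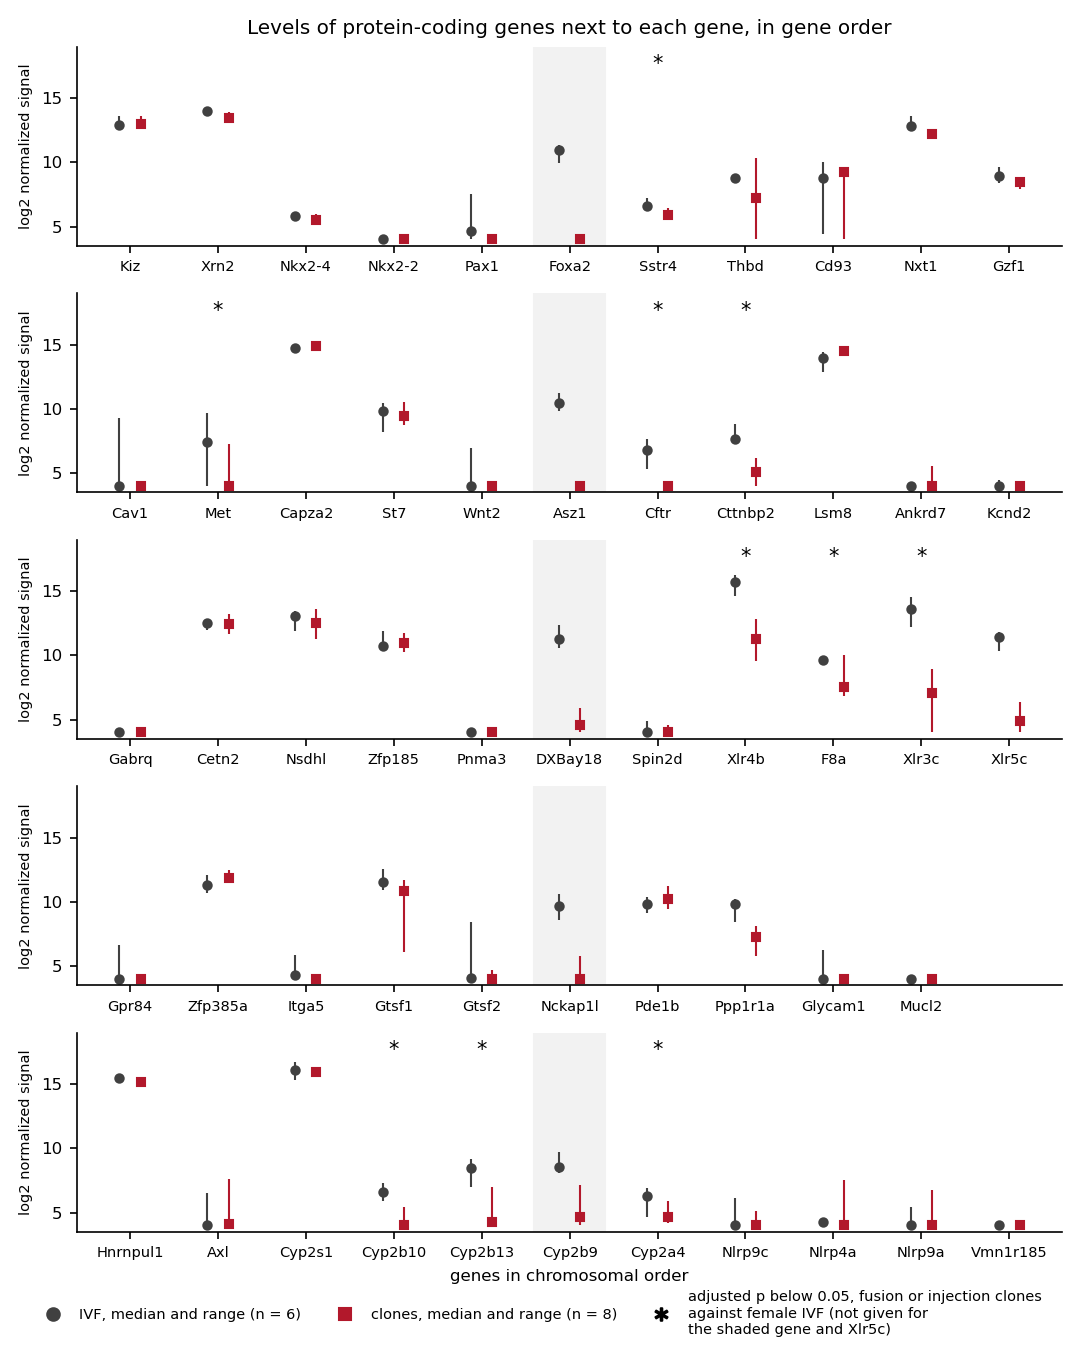
Each panel shows 1 of the 5 genes (shaded) between its protein-coding neighbours in chromosomal order. Points are medians of the log2 normalized signal over 6 IVF arrays (black; 3 for *Hnrnpul1*) and 8 clone arrays (red), lines span the lowest to the highest array, and stars mark neighbours with an adjusted p below 0.05 in fusion or injection clones against female IVF embryos. *Xlr5c* was not tested. Stars are absent around *Nckap1l*, and *Xlr* genes carry them on 1 side of *DXBay18*.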

How the data were processed

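RNA of 14 blastocyst samples was measured on 1-colour Agilent arrays, and samples were grouped by their labels (4 clones made by fusion, 4 by injection, and 3 IVF embryos of each sex). Per the file headers, the authors' scanner output came from Feature Extraction (10.5.1 per the labels; an older version for the IVF arrays), and the deposited processed intensity of each spot is background-subtracted, on a linear scale and not normalized between arrays. The IVF files hold 6790 to 9981 values below 0 and the clone files 0. The authors also deposited log2 values of the same arrays, used as an alternative, with 0 columns left without a sample; their scale is log2, and their centring per probe is not stated.

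The intensities of gene spots were quantile-normalized over 14 arrays, as the study's methods name a normalization of this kind, with values under 16 raised to 16, then averaged as log2 per probe. The limits were applied to all spots, and values and fits left out spots marked as outliers (101 to 338 per array). Between 57.4% and 65.2% of probes were well above background on each array, which with the number of arrays limits the precision. Of 41174 gene probes, 32716 (79.5%) were named through the RefSeq gene table, and a gene in a list is given by its brightest probe.

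Comparisons used limma (3.58.1, R 4.3.3) lmFit and eBayes on probes well above background on at least 1 array compared, with Benjamini-Hochberg adjustment over all of them. Fits were tested on simulated data. Python 3.11.15 was used otherwise. The named genes were all 5 members and the 3 nearest probes outside each limit, with genes of the lists and neighbours that were called or that define a lineage. The members, the lists (epiblast, trophectoderm, primitive endoderm, cumulus, oocyte, zygotic activation, germline and imprinted genes) and these tests were chosen with earlier results of these data known. The neighbours of the genes, and which list genes to name, were chosen after their values were seen.

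The values given for male against female embryos come from the fit without a replicate block, and the block was an alternative. Replicate numbers of these embryos were taken as pairs there, since same-numbered arrays deviated together from their group means (correlations across probes of 0.109, 0.129 and 0.110, with no shared litter or day in the labels). Alternatives were other background corrections, scalings, floors, filters and limits, the deposited log2 values, 1 fit of all groups, and leaving out each array.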

Additional observations from a re-analysis of the deposited data

Results flagged for a closer look

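Among 24 clone groups of 4 arrays with any spread, for the 6 probes, the probes just outside the limits and those of the opposite pattern, 7 held 1 array whose distance to the nearest other exceeded Dixon's critical share of the group's range, where chance gives about 5%. In most of them the other 3 arrays were at the floor of 4, which by itself makes any detected array stand apart. Injection clone 3 read 4.70 on the *DXBay18* probe A_52_P166292. Injection clone 1 read 5.77 for *Nckap1l*. *Nr0b1* read 5.16 in fusion clone 3 and 8.52 in injection clone 4, the latter within the range of the IVF embryos (7.98 to 10.33). *Pcdh8* read 7.46 in injection clone 2, and *Rapgef5* read 4.81 in fusion clone 2. The unnamed probe A_51_P445924 read 5.51 in fusion clone 3 and 5.68 to 5.71 in the other fusion clones, a narrow range in which all clones were above background.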

How the results depend on the processing

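The number of probes within the limits was 6 under normexp, 75th percentile scaling, both other floors and the removal of outlier spots, but not always the same 6: with normexp a *DXBay18* probe and *Cyp2b9* gave way to *Nr0b1* and *Pcdh8*, and with 75th percentile scaling *Cyp2b9* to *Nr0b1*. It was 5 with all 8 clones at 6 or less, 4 with an IVF limit of 9, 15 with a clone limit of 7, 18 with an IVF limit of 7, 38 where detection above background replaced the limits (with 3 of the 6, both *DXBay18* probes and *Cyp2b9* being lost), and 6 to 10 with 1 array left out. The opposite pattern held 4 probes, 2 with normexp, and 4 to 15 with 1 array left out.

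For fusion against injection clones, where 0 probes were called, floor 1 gave 11, the deposited log2 values 2, a fit of all 4 groups 1, leaving out 1 array 0 to 2 and an unadjusted p below 0.05 with at least a 2-fold difference 786. For male against female embryos, with 20 calls, floor 1 gave 100, the deposited values 151, no filter 36, the stricter filter 51, all 4 groups 205, the methods' threshold 1851 and 1 array left out 1 to 15. For fusion clones against female embryos (2958 calls) the methods' threshold gave 5483 and 1 array left out 1087 to 2667. For injection clones (1133 calls) floor 1 gave 606, the deposited values 617, no filter 743, the stricter filter 1917, all 4 groups 3058, the methods' threshold 4583 and 1 array left out 172 to 1038. The cause of these shifts was not tested.

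None of the members was called between the sexes under any of these settings (0 calls). Between the 2 kinds of clone, the brighter *DXBay18* probe changed sign at floor 32 (-0.021) and ranged from -0.30 to 0.41 with 1 array left out, and *Cyp2b9* changed sign at floor 1 (-0.039) and ranged from -0.12 to 0.94. Between the sexes *Cyp2b9* ranged from -0.36 to 0.45. With the replicate block, the comparison of the sexes gave 0 calls in place of 20, and that of fusion with injection clones 0 as without it, where same-numbered arrays did not deviate together (correlations of -0.06 to 0.11), so that those numbers were not taken as pairs. No block for slide or scan could be run, since each slide held 1 group.

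Against female embryos, the counts of primitive endoderm genes lower, *Foxa2* left out, were 0 to 2 with 1 array left out in fusion and 0 to 1 in injection clones, and up to 7 in injection clones under other settings.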
